A study of Sus scrofa with 18 samples.

Results

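The genes described here are 9 enzymes of glycolysis and lactate formation, HK2, PFKM, ALDOA, TPI1, PGK1, ENO3, PKM, LDHA and LDHB, together with GPD2, the mitochondrial enzyme of the glycerol phosphate shuttle. They were taken as the probe sets that the authors' annotation of the array names with 1 of these symbols, with the older symbol PKM2 read as PKM. All 10 genes were found, with 12 of the 23999 probe sets tested: 1 for each glycolytic gene and 3 for GPD2. None was lost to a filter.

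Muscle RNA of 5 female domestic piglets (mean weight 26.9 kg), a model of the acute weakness of intensive care, had been hybridised to 18 Affymetrix porcine arrays. Day 5 masseter, a chewing muscle, had 5 arrays and is labelled treated, and day 1 masseter of the same animals had 5 arrays and is labelled untreated. Day 5 biceps femoris, a thigh muscle, had 4 arrays, and day 1 biceps femoris, titled as control, had 4 arrays. Over the 5 days the animals were anaesthetised with isoflurane, ventilated, given a glucose infusion, and treated with the neuromuscular blocker pancuronium (0.1 mg/kg/h), the corticosteroid betamethasone (doses of 0.1 mg/kg) and Escherichia coli endotoxin (36 µg/kg/h for 1 h). The sources used here do not say how much of this preceded the day 1 samples, and no array here is labelled as coming from an undrugged animal; time and treatment cannot be told apart. A masseter replicate number stands for 1 animal on both days, whereas the biceps femoris numbers are not tied to animals. The series title asks how chewing muscle is spared relative to biceps femoris. Values are log2 intensities after RMA normalization, done by the authors for each muscle apart, so levels were not compared between muscles.

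Glycolysis splits glucose into pyruvate in the cytosol and yields ATP and NADH without oxygen. Working muscle, above all its fast fibres, can draw much of its energy from it. Lactate dehydrogenase reoxidises the NADH by turning pyruvate into lactate. The glycerol phosphate shuttle is another way to reoxidise it: cytosolic GPD1 makes glycerol 3-phosphate, and GPD2, on the inner mitochondrial membrane, oxidises that back and passes the electrons to the respiratory chain.

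Some arrays stood apart. In masseter, day 5 replicate 1 lay at day 1 levels for 5 of the enzymes (below). In biceps femoris, the BioC hybridisation spike-in read 7.67 to 7.99 at day 5 and 8.17 in day 1 replicate 4, against 9.13 to 9.33 in the other day 1 arrays, so that replicate 4 was the sole day 1 array with day 5-like spike-ins. Day 5 replicate 1 of biceps femoris had the highest difference between 3' and 5' actin probes in its muscle (2.05, others 1.04 to 1.72). The 28S ribosomal RNA control separated the days of biceps femoris without overlap, at 12.09 to 13.12 at day 5 and 11.68 to 12.07 at day 1, so it moved with every biceps femoris change given here, and its part in them was not tested. In masseter it overlapped, at 9.40 to 10.31 at day 5 and 9.93 to 10.33 at day 1. The median value per array was 6.12 to 6.16 in masseter and 6.09 to 6.14 in biceps femoris, and the number of arrays limits the precision. Among 5 markers of the fibre itself, alpha-actin ACTA1 was near the top of the scale in both muscles. It averaged 15.03 at day 5 and 15.08 at day 1 in masseter, and 14.59 and 14.60 on those days in biceps femoris. Other markers moved on the log2 scale: DES rose in masseter (0.56), and MB fell in masseter (-0.85) and in biceps femoris (-2.56). By the probe set of highest mean of each gene, no other change of these 5 passed an adjusted p of 0.05 in limma. Dimmer probe sets of TTN did pass. The same probe set fell in masseter (-0.82, adjusted p = 0.0163) and in biceps femoris (-1.27, adjusted p = 0.000523). Another fell in masseter only (-0.36, adjusted p = 0.0392), and another in biceps femoris only (-0.65, adjusted p = 0.0283). The rest of its 13 probe sets did not pass. The part of saturation in ACTA1 was not tested.

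TPI1, PGK1 and LDHB fell by day 5 in both muscles, and GPD2 rose in both; the fall of LDHB in masseter did not pass when the animal was added as a block. In masseter, 6 of the 10 genes passed an adjusted p of 0.05 in limma, with GPD2 higher and TPI1, PGK1, ENO3, LDHA and LDHB lower, against a background of 13.8% of all probe sets (7.31% higher, 6.51% lower). In biceps femoris, 6 of 10 passed as well, with GPD2 higher and PFKM, TPI1, PGK1, PKM and LDHB lower, against 17.2% of all probe sets (9.89% higher, 7.27% lower). The median change of the 10 genes was -0.77 in masseter and -0.91 in biceps femoris on the log2 scale, beside -0.03 and -0.02 over all probe sets. The arrays of the days did not overlap for 3 of 10 genes in masseter, TPI1 and PGK1 lower (5.82% of all probe sets) and GPD2 higher (5.58%), and for 7 of 10 in biceps femoris, PFKM, TPI1, PGK1, PKM, LDHA and LDHB lower (10.2%) and GPD2 higher (12.0%). With the animal as a block the masseter count was 4 of 10, without ENO3 and LDHB, and without day 5 replicate 1 it was 8 of 10, with PFKM and PKM added. That array was singled out after its values were seen. With the spike-in sets of the biceps femoris arrays as a block, so that day 1 rested on replicate 4 alone, 3 of 10 passed there (GPD2 higher, PGK1 and PKM lower). The share of all probe sets that passed in these other fits is not given here, so these counts have no background to be read against. In bulk muscle, less RNA per fibre and fewer fibres of a type cannot be told apart.

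**Figure D1:**
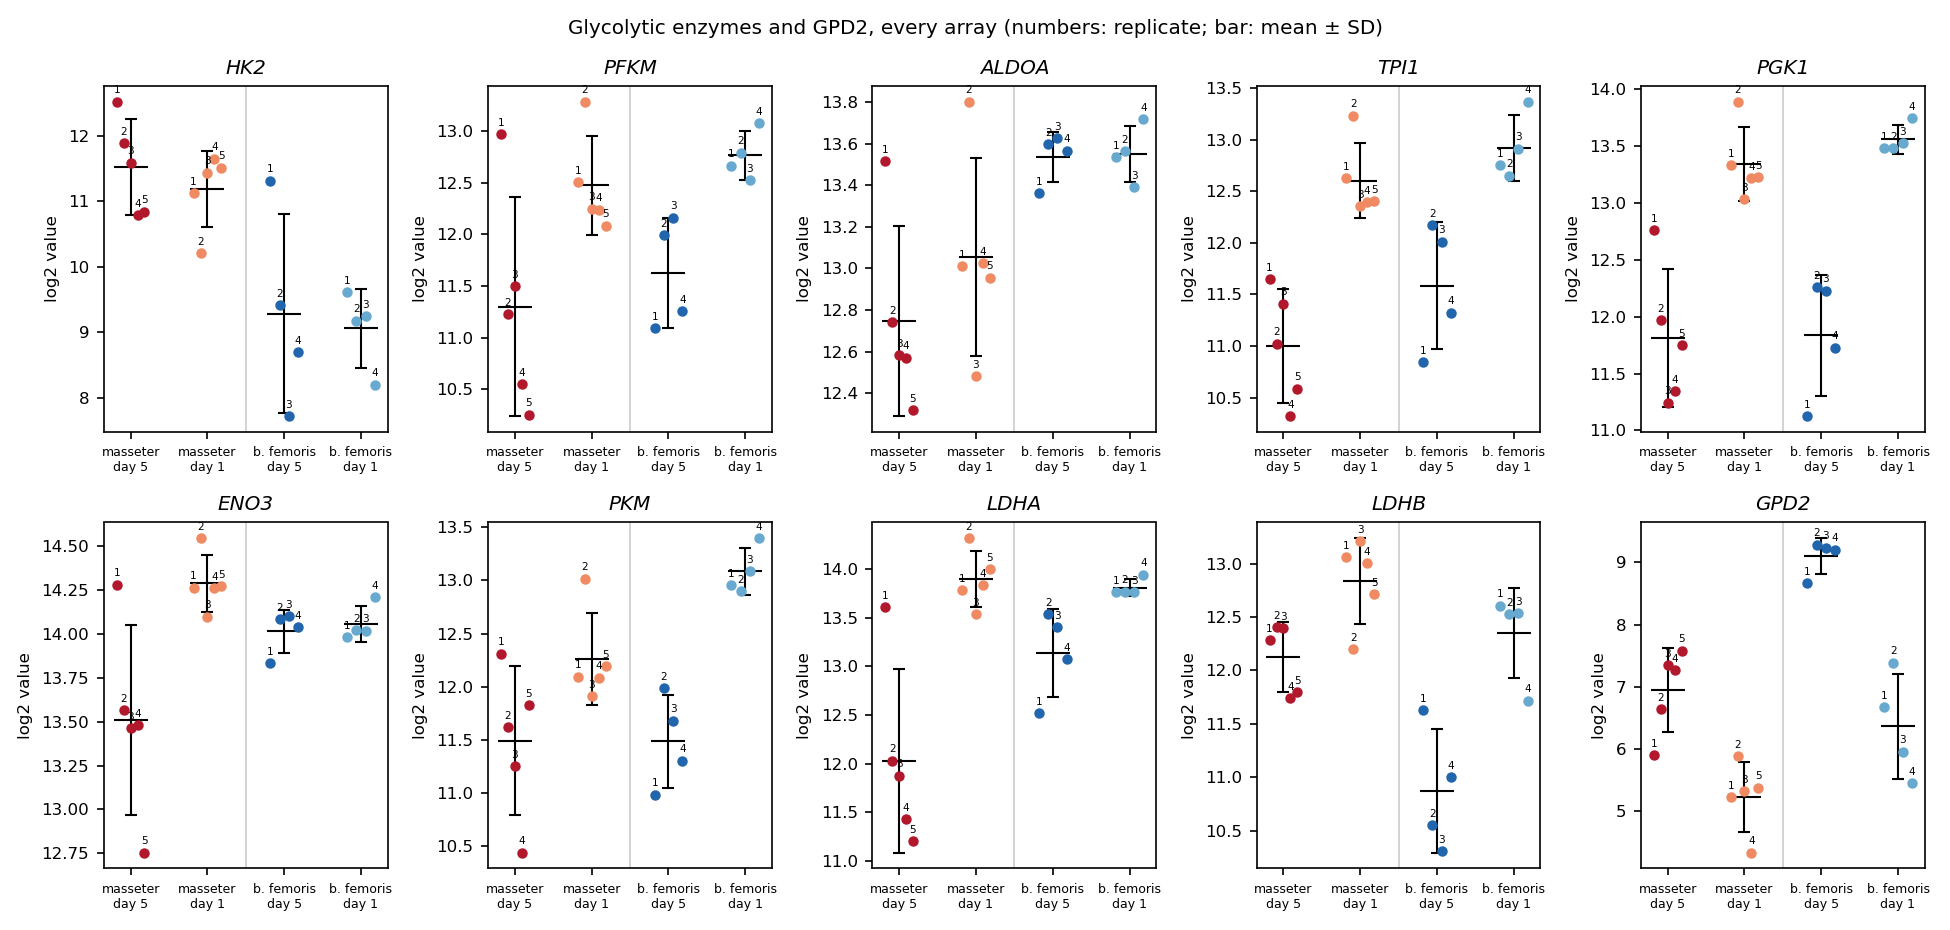
Log2 value of the representative probe set of each gene (y axis, own scale per gene) on every array, by muscle and day (x axis). Points are arrays with their replicate number, and bars are mean ± SD of 5 masseter or 4 biceps femoris arrays; TPI1 and PGK1 show no overlap between days in either muscle, with day 5 lower, and GPD2 none with day 5 higher.

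HK2 is the hexokinase that phosphorylates glucose on its entry into muscle, and it is induced by insulin and by activity. In masseter it read 12.52, 11.89, 11.59, 10.79 and 10.85 in day 5 replicates 1 to 5, against 11.12, 10.21, 11.44, 11.65 and 11.52 at day 1. In biceps femoris it read 11.32, 9.41, 7.72 and 8.69 in day 5 replicates 1 to 4, against 9.62, 9.18, 9.25 and 8.20 at day 1. The days overlapped in both muscles, and the day 5 arrays of biceps femoris spread over more of the scale than those of any other member (SD 1.52, n = 4). The changes were 0.34 (95% interval -0.47 to 1.15, adjusted p = 0.581) in masseter and 0.23 (-1.36 to 1.81, adjusted p = 0.874) in biceps femoris, intervals wide enough to hold a rise or a fall.

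PFKM, the muscle form of phosphofructokinase, commits sugar to glycolysis. Its masseter values were 12.97, 11.23, 11.50, 10.55 and 10.25 in day 5 replicates 1 to 5, against 12.51, 13.29, 12.25, 12.24 and 12.09 at day 1. Replicates 2 to 5 of day 5 lay below every day 1 array, whereas replicate 1 lay above all but 1 of them. The change of -1.17 ± 0.45 (SE) did not pass (adjusted p = 0.114), and without that array it was -1.59 with an adjusted p of 0.00590. In biceps femoris PFKM read 11.09, 11.99, 12.16 and 11.25 at day 5, against 12.67, 12.79, 12.53 and 13.08 at day 1, with no overlap. It fell there 2.20-fold (log2 -1.14 ± 0.25 SE, adjusted p = 0.0164), and with the spike-in block the change was -1.45 with an adjusted p of 0.0917.

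ALDOA, the muscle aldolase, cuts the phosphorylated sugar into 2 triose phosphates, and TPI1 (triose phosphate isomerase) interconverts them. ALDOA averaged 12.75 ± 0.46 at day 5 and 13.06 ± 0.47 at day 1 in masseter (SD, n = 5 each), and 13.54 ± 0.12 and 13.55 ± 0.13 on those days in biceps femoris (n = 4 each). Neither change passed: -0.31 (95% interval -0.89 to 0.27) in masseter and -0.01 (-0.24 to 0.22) in biceps femoris. TPI1, by contrast, read 11.65, 11.02, 11.41, 10.32 and 10.59 in masseter day 5 replicates 1 to 5, against 12.63, 13.23, 12.36, 12.40 and 12.41 at day 1. In biceps femoris it read 10.84, 12.17, 12.01 and 11.32 at day 5, against 12.75, 12.65, 12.91 and 13.37 at day 1. Every day 5 array of either muscle lay below every day 1 array. TPI1 fell 3.04-fold in masseter (adjusted p = 0.00373) and 2.52-fold in biceps femoris (adjusted p = 0.0172). The biceps femoris call was lost with the spike-in block (-1.78, adjusted p = 0.0764) and barely without day 5 replicate 4 (adjusted p = 0.05005).

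PGK1, phosphoglycerate kinase, makes the first ATP of the pathway. It read 12.76, 11.97, 11.24, 11.35 and 11.75 in masseter day 5 replicates 1 to 5, against 13.33, 13.89, 13.03, 13.22 and 13.23 at day 1. In biceps femoris it read 11.13, 12.26, 12.23 and 11.73 at day 5, against 13.48, 13.48, 13.52 and 13.74 at day 1. The days were apart in both muscles, by more than 1 log2 unit in biceps femoris. PGK1 fell 2.88-fold in masseter (log2 -1.53 ± 0.27 SE, adjusted p = 0.00552) and 3.30-fold in biceps femoris (-1.72 ± 0.24 SE, adjusted p = 0.00201). It was among the genes that kept their call in both muscles under every alternative run there.

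ENO3 is the muscle enolase. In masseter it read 14.28, 13.57, 13.46, 13.48 and 12.75 in day 5 replicates 1 to 5, against 14.26, 14.54, 14.10, 14.26 and 14.27 at day 1, so 4 of the 5 day 5 arrays lay below all of day 1. The fall of 1.72-fold passed narrowly (log2 -0.78 ± 0.23 SE, adjusted p = 0.0436). When the animal was added as a block it missed (adjusted p = 0.0592) and when any 1 of 9 arrays was left out, all but day 5 replicate 1 (adjusted p 0.0594 to 0.0902). In biceps femoris ENO3 averaged 14.01 ± 0.12 at day 5 and 14.06 ± 0.10 at day 1 (SD, n = 4 each), a change of -0.04 (95% interval -0.26 to 0.17). Both ENO3 and ALDOA were bright, at 12.32 or more on every array where the highest values were 14.58 to 15.22; the part of saturation in their changes was not tested.

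PKM, pyruvate kinase, makes pyruvate and the last ATP of the pathway; the probe set does not tell its splice forms apart here. It read 12.31, 11.62, 11.25, 10.44 and 11.82 in masseter day 5 replicates 1 to 5, against 12.09, 13.02, 11.91, 12.09 and 12.19 at day 1. The change of -0.77 ± 0.32 (SE) did not pass (adjusted p = 0.144), and it was -0.98 with an adjusted p of 0.0458 without day 5 replicate 1. In biceps femoris PKM read 10.98, 11.99, 11.68 and 11.30 at day 5, against 12.96, 12.90, 13.08 and 13.40 at day 1, with no overlap. It fell there 3.03-fold (-1.60 ± 0.22 SE, adjusted p = 0.00177).

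Lactate dehydrogenase is a tetramer of LDHA subunits, which prevail in fast fibres, and LDHB subunits, which prevail in heart and slow fibres. LDHA read 13.61, 12.03, 11.87, 11.43 and 11.20 in masseter day 5 replicates 1 to 5, against 13.78, 14.32, 13.54, 13.84 and 13.998 at day 1. Replicate 1 of day 5 again lay among the day 1 arrays, with the others at least 1.5 units below them. LDHA fell 3.64-fold in masseter (log2 -1.86 ± 0.39 SE, adjusted p = 0.0112), the largest fall among the members there. In biceps femoris it read 12.52, 13.53, 13.40 and 13.07 at day 5, against 13.76, 13.77, 13.76 and 13.94 at day 1. These did not overlap, but the change of -0.68 ± 0.20 (SE) missed the threshold (adjusted p = 0.0557), which it passed under 5 of the other settings tried and without day 5 replicate 1 or 2.

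LDHB read 12.28, 12.40, 12.40, 11.74 and 11.80 in masseter day 5 replicates 1 to 5, against 13.06, 12.20, 13.21, 13.01 and 12.72 at day 1. Day 1 replicate 2 was the low array that made the days overlap. The fall of 1.64-fold (-0.71 ± 0.21 SE) passed by little (adjusted p = 0.0451) and missed when the animal was added as a block (adjusted p = 0.0731). In biceps femoris LDHB read 11.63, 10.55, 10.31 and 11.00 at day 5, against 12.61, 12.53, 12.54 and 11.72 at day 1, a fall of 2.78-fold (-1.47 ± 0.31 SE, adjusted p = 0.0127). Its lowest day 1 array was replicate 4, the one with day 5-like spike-ins. With the spike-in block, which rests on that array, the change was -0.84 with an adjusted p of 0.351.

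The log2 value of LDHB minus that of LDHA was taken on each array. Only its change can be read, since the probes of different genes differ in brightness. In masseter it was -1.33, 0.37, 0.52, 0.31 and 0.59 in day 5 replicates 1 to 5, against -0.72, -2.12, -0.33, -0.83 and -1.28 at day 1. It was 1.15 higher at day 5 (exact permutation test over arrays, two-sided, p = 0.0397, 0.0529 after adjustment over the 4 isozyme tests), and 1.51 higher without replicate 1 of day 5 (p = 0.0159). For 8 of the 10 arrays, leaving out that 1 array raised the permutation p to between 0.0635 and 0.0794, with fewer arrays to permute. The permutation ignored that both masseter days came from the same animals, and the sign-flip test by animal is given in the closing section. In biceps femoris the difference averaged -2.26 ± 1.02 at day 5 and -1.46 ± 0.51 at day 1 (SD, n = 4 each), a change of -0.80 (exact permutation p = 0.257, with 0.0286 the smallest that 4 against 4 arrays allow). No test compared the muscles for this difference.

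**Figure D2:**
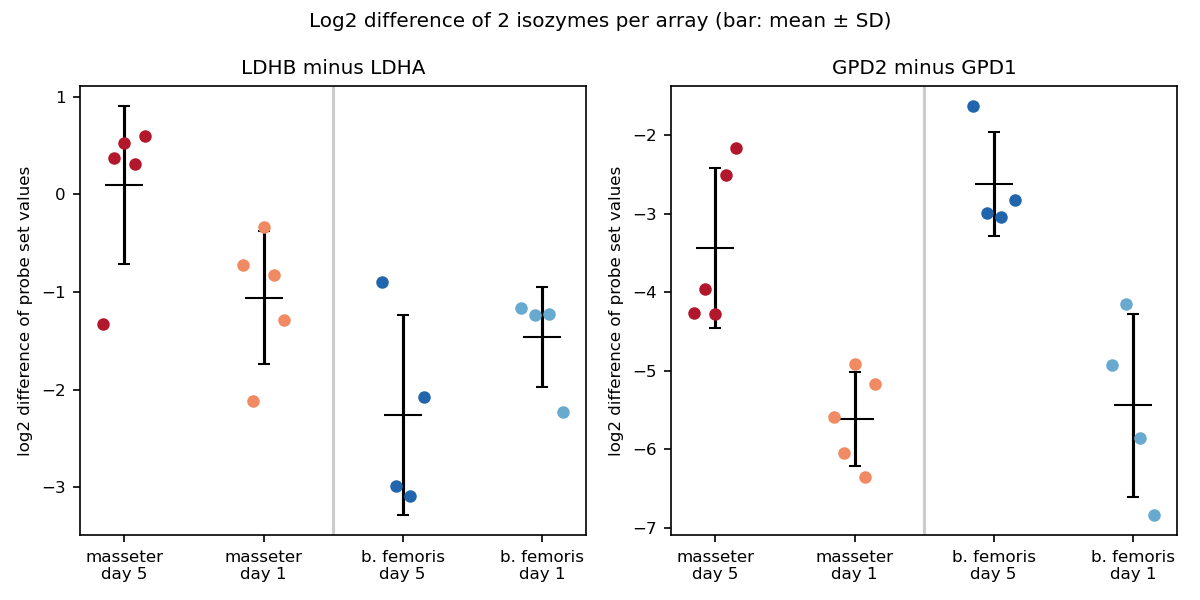
Log2 value of LDHB minus LDHA (left) and of GPD2 minus GPD1 (right) on each array (y axis), by muscle and day (x axis); points are arrays, bars mean ± SD of 5 or 4 arrays. In masseter LDHB minus LDHA lay between 0.31 and 0.59 in 4 day 5 arrays and at -1.33 in the fifth, and GPD2 minus GPD1 did not overlap between days in either muscle.

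GPD2 was the one member that rose in either muscle. The brightest of its 3 probe sets, taken to represent it, read 5.90, 6.65, 7.35, 7.27 and 7.58 in masseter day 5 replicates 1 to 5, against 5.23, 5.88, 5.33, 4.34 and 5.38 at day 1. In biceps femoris it read 8.66, 9.28, 9.24 and 9.20 at day 5, against 6.67, 7.39, 5.96 and 5.46 at day 1. All day 5 arrays lay above all day 1 arrays of their muscle. GPD2 rose 3.29-fold in masseter (log2 1.72 ± 0.35 SE, adjusted p = 0.00985) and 6.62-fold in biceps femoris (2.73 ± 0.38 SE, adjusted p = 0.00206). Of all probe sets, 99.54% had a lower change in masseter and 99.95% in biceps femoris.

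The other GPD2 probe sets, which had lower means over the 18 arrays, had differences of the same sign in both muscles. The intermediate one rose 2.65-fold in masseter, with 7.07 ± 0.59 at day 5 and 5.67 ± 0.33 at day 1 (adjusted p = 0.00770), and 4.60-fold in biceps femoris, with 7.91 ± 0.29 and 5.71 ± 0.40 on those days (adjusted p = 0.000502). The dimmest one read 4.30 to 4.50 on day 1 arrays of biceps femoris, whereas 25% of all probe sets lay below 4.38 to 4.43 on those arrays. It rose 1.63-fold in biceps femoris (adjusted p = 0.00112), and in masseter it averaged 5.46 ± 0.12 at day 5 and 5.05 ± 0.43 at day 1, a change of 0.41 that did not pass (adjusted p = 0.168).

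The partner of GPD2, cytosolic GPD1, changed by -0.46 ± 0.39 (SE) in masseter (adjusted p = 0.475) and by -0.09 ± 0.43 in biceps femoris (adjusted p = 0.927). GPD1L, a close relative of GPD1, changed by 0.17 and 0.53 (adjusted p = 0.471 and 0.0904 for masseter and biceps femoris). GPD2 minus GPD1 was -4.27, -3.96, -4.27, -2.51 and -2.16 in masseter day 5 replicates 1 to 5, against -5.59, -6.04, -4.92, -6.35 and -5.16 at day 1. It was 2.18 higher at day 5 (exact permutation p = 0.00794, the smallest possible, 0.0317 after adjustment). This permutation ignored that both masseter days came from the same animals. The sign-flip test by animal is given in the closing section, and so few pairs cannot bring its p under 0.05. In biceps femoris GPD2 minus GPD1 was -1.64, -2.998, -3.04 and -2.83 at day 5, against -4.92, -4.14, -5.86 and -6.83 at day 1, a difference of 2.81 (exact permutation p = 0.0286, the smallest possible, 0.0529 after adjustment).

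**Figure D3:**
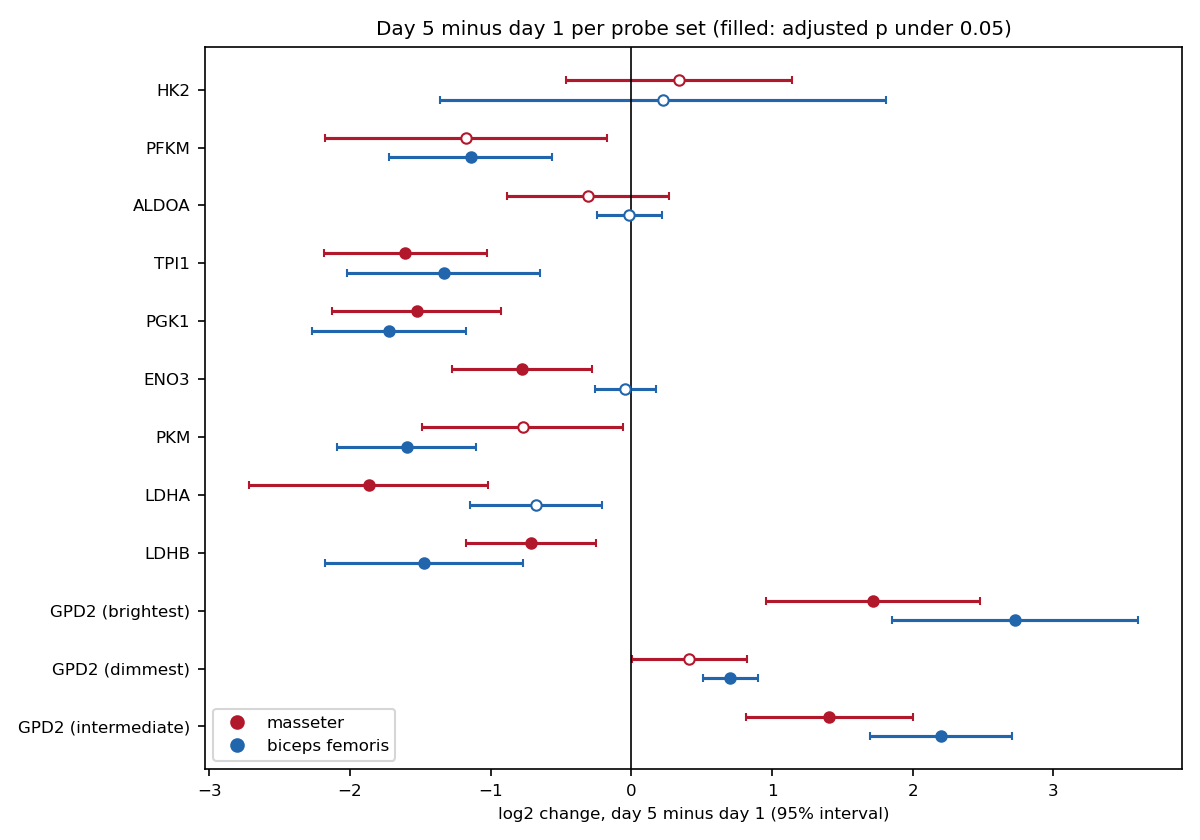
Log2 change, day 5 minus day 1 (x axis), with its 95% interval from limma for each of the 12 probe sets (y axis) in masseter (red) and biceps femoris (blue). Filled points had an adjusted p under 0.05; the 3 GPD2 probe sets lie at 0.41 to 2.73, and TPI1, PGK1 and LDHB lie between -1.72 and -0.71 in both muscles.

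Within single animals, masseter could be followed across the days. TPI1, PGK1 and LDHA were lower at day 5 in 5 of 5 animals, and GPD2 was higher in 5 of 5 by both of its brighter probe sets. PFKM, ENO3, PKM and LDHB were lower in 4 of 5 animals, ALDOA in 3 and HK2 in 2. The differences within an animal ran between -2.21 and -0.95 for TPI1, -1.92 and -0.57 for PGK1, -2.80 and -0.17 for LDHA, and 0.67 and 2.93 for GPD2. Animals 4 and 5 had all 9 glycolytic genes lower at day 5, animals 2 and 3 had 7, and animal 1 had 4. The median difference over these 9 genes was 0.02 in animal 1, against -1.40, -0.75, -1.65 and -1.48 in animals 2 to 5. Animal 1 nevertheless had TPI1 lower by 0.98 and LDHB lower by 0.78, and its GPD2 difference was 0.67 by the brightest probe set, 0.91 by the intermediate one and 0.71 by the dimmest. That was the smallest of the 5 animals by the brightest probe set only: by the intermediate one animal 2 had the smallest (0.90), and by the dimmest animal 1 had the largest.

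**Figure D4:**
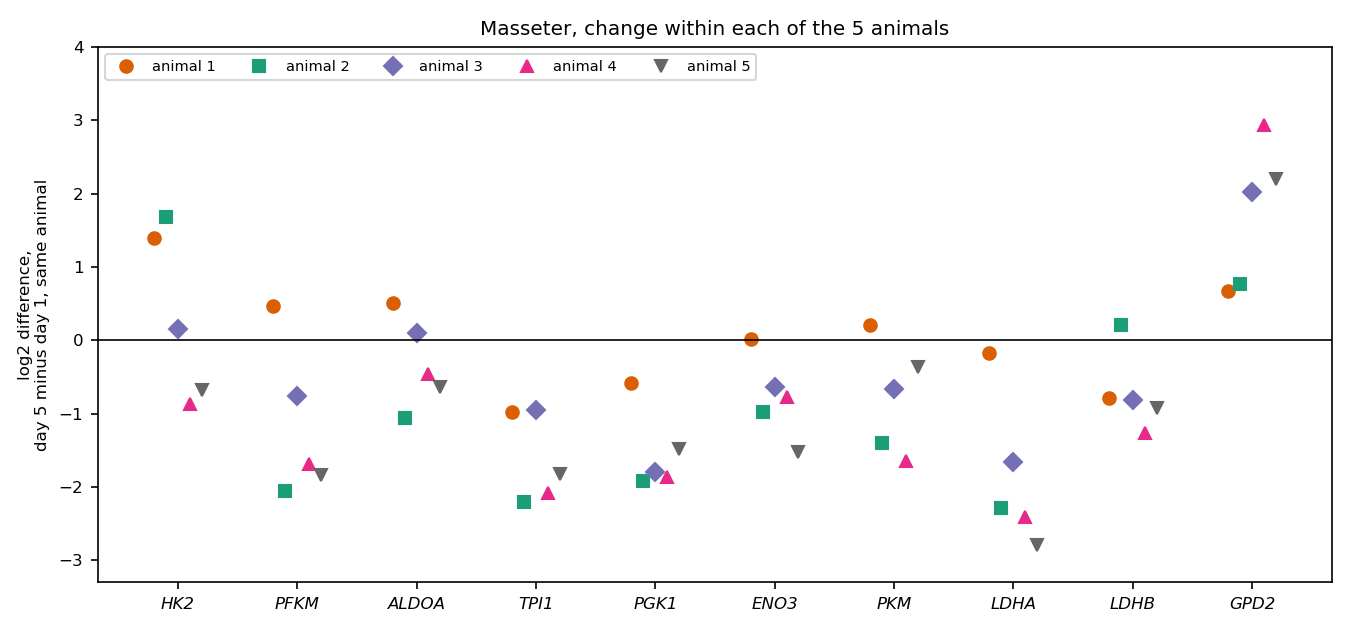
Difference between the day 5 and the day 1 masseter array of the same animal (y axis, log2) for each gene (x axis), 1 symbol per animal. Animal 1 lies near or above 0 for PFKM, ALDOA, ENO3, PKM and LDHA, where its median over the 9 glycolytic genes was 0.02, and all 5 animals lie below 0 for TPI1 and PGK1 and above 0 for GPD2.

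The spread between arrays was compared as well. In masseter the SD at day 5 exceeded that at day 1 for 8 of the 10 genes, and in biceps femoris also for 8, against 62.4% and 61.1% of all probe sets. The median SD of the 10 genes was 0.643 at day 5 and 0.418 at day 1 in masseter, and 0.492 and 0.229 on those days in biceps femoris. Without day 5 replicate 1, masseter had 6 of 10 such genes (52.7% of probe sets), and its median SD at day 5 was 0.392, below that at day 1. The array was chosen after its values were seen, and leaving an outlying array out of 1 group lowers that group's SD by construction. In biceps femoris there were 6 of 10 (48.8%) without day 5 replicate 1, with a median SD of 0.320 at day 5, and 9 of 10 (68.1%) without day 1 replicate 4. No test of the spread was made.

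For the question of the series title, the change in masseter was set against that in biceps femoris. None of the 10 genes passed in limma's contrast of both changes, where 0.200% of all probe sets passed. At an unadjusted p under 0.05 there were 2 of 10 genes, ENO3 and LDHA, against 12.3% of probe sets. The masseter change minus the biceps femoris change was -0.74 (95% interval -1.33 to -0.15, adjusted p = 0.281) for ENO3 and -1.19 (-2.24 to -0.14, adjusted p = 0.337) for LDHA. These intervals and those of the others do not show that the muscles acted alike: the interval was -1.29 to 1.22 for PFKM, -1.16 to 0.62 for TPI1, -0.64 to 1.03 for PGK1, -0.10 to 1.75 for PKM, -0.05 to 1.56 for LDHB and -2.17 to 0.15 for GPD2. Without masseter day 5 replicate 1 LDHA passed (-1.58, adjusted p = 0.0396), and when limma weighted the arrays by their quality both LDHA (-1.60, adjusted p = 0.0252) and ENO3 (-0.93, adjusted p = 0.0374) did. Of the 18 fits that each left out 1 array, 17 left LDHA uncalled. Replicate 1 held the highest LDHA value of masseter at day 5 (13.61), so leaving it out enlarges the fall by construction. The share of all probe sets that passed in these fits is not given here. Per the protocol, biceps femoris came from 4 of the masseter animals, and the contrast took all arrays as independent.

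Around these genes, 61 further genes of the pathway and its neighbours were measured. In masseter 1 rose and 20 fell, in biceps femoris 1 rose and 15 fell, and none passed in the contrast of the muscles in limma (8 at an unadjusted p under 0.05, against 12.3% of all probe sets). Each gene was counted by its probe set of highest mean. Of all probe sets, 7.31% passed higher and 6.51% lower in masseter, and 9.89% higher and 7.27% lower in biceps femoris. These shares are the background for the called counts of each list below. Of 16 other glycolytic enzymes and isozymes, 3 fell in masseter: LDHD, a lactate dehydrogenase specific for D-lactate (-1.95 ± 0.23 SE), the enolase isozyme ENO1 (-1.07 ± 0.27) and GPI (-1.002 ± 0.215), which interconverts glucose and fructose phosphates. In biceps femoris 2 fell, BPGM (-2.05 ± 0.27), an enzyme abundant in red cells that makes bisphosphoglycerate, and LDHD (-1.37 ± 0.15). Also in the main sequence, GAPDH and the muscle mutase PGAM2 did not pass in either muscle: GAPDH changed by -0.08 in masseter and 0.02 in biceps femoris, at 14.27 to 14.84 on all arrays, close to the top of the scale, and PGAM2 by -0.14 and -0.26. GPI changed by -0.83 in biceps femoris (adjusted p = 0.123). The median change of the 16 was -0.07 in masseter and -0.06 in biceps femoris.

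Among 8 regulators of glycolytic flux, PFKFB4, which sets the level of the phosphofructokinase activator fructose 2,6-bisphosphate, fell in masseter (-0.77, adjusted p = 0.0304). None passed in biceps femoris, where 1 of the 8 had an unadjusted limma p under 0.05, as did 29.7% of all probe sets. Of 8 transporters, 4 fell in masseter: the lactate exporter SLC16A3 of glycolytic fibres (-3.14 ± 0.58 SE, adjusted p = 0.00682), its chaperone BSG (-0.75), the fructose carrier SLC2A5 (-2.12) and the insulin-regulated glucose carrier SLC2A4 (-0.54). In biceps femoris BSG fell (-0.93, adjusted p = 0.00162), while SLC16A3 changed by -1.66 (adjusted p = 0.0949) and SLC2A4 by -0.62 (adjusted p = 0.0918). The dimmer probe sets of SLC2A4 differed. The dimmest passed in masseter (-0.53, adjusted p = 0.0120) and in biceps femoris (-0.46, adjusted p = 0.0121). The other passed in neither muscle (-0.12 and -0.24).

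The malate-aspartate shuttle is the other main route by which NADH electrons enter mitochondria. Of 9 genes of both NADH shuttles other than GPD2, with GPD1 and GPD1L counted, 4 fell in masseter and 6 in biceps femoris, and none rose. The transaminases GOT1 (cytosolic) and GOT2 (mitochondrial) fell by 1.70 and 0.89 in masseter and by 2.70 and 1.02 in biceps femoris on the log2 scale. The malate dehydrogenase MDH1 fell by 1.30 in masseter and 1.57 in biceps femoris, and the aspartate carrier SLC25A12 by 1.78 and 2.41. MDH2 changed by -0.40 in masseter (adjusted p = 0.182) and fell by 0.83 in biceps femoris.

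For the entry of pyruvate into mitochondria, 6 of 10 genes fell in masseter and 4 in biceps femoris, with 1 higher in each. The pyruvate dehydrogenase subunits DLAT, DLD and PDHB fell in both muscles, by 1.34, 0.94 and 0.68 in masseter and by 1.45, 1.31 and 1.04 in biceps femoris. PDHA1 fell by 0.77 in masseter and 1.21 in biceps femoris, and PDHX fell by 1.14 in masseter and changed by -0.40 in biceps femoris (adjusted p = 0.0651). The gene that rose, named after its values were seen, was PDK3 in both muscles, a kinase that switches the complex off (0.58, adjusted p = 0.0368, and 0.47, adjusted p = 0.0496). Its dimmer probe sets did not pass, at 0.57 and -0.11 in masseter and 0.20 and -0.01 in biceps femoris. The kinases PDK1 and PDK4 did not pass in either muscle, and PDK2 was not measured, having no probe set under its name. Of 10 genes of glycogen and glucose phosphate, GYS1 (muscle glycogen synthase) fell in each muscle, by 1.50 in masseter and 1.60 in biceps femoris.

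**Figure D5:**
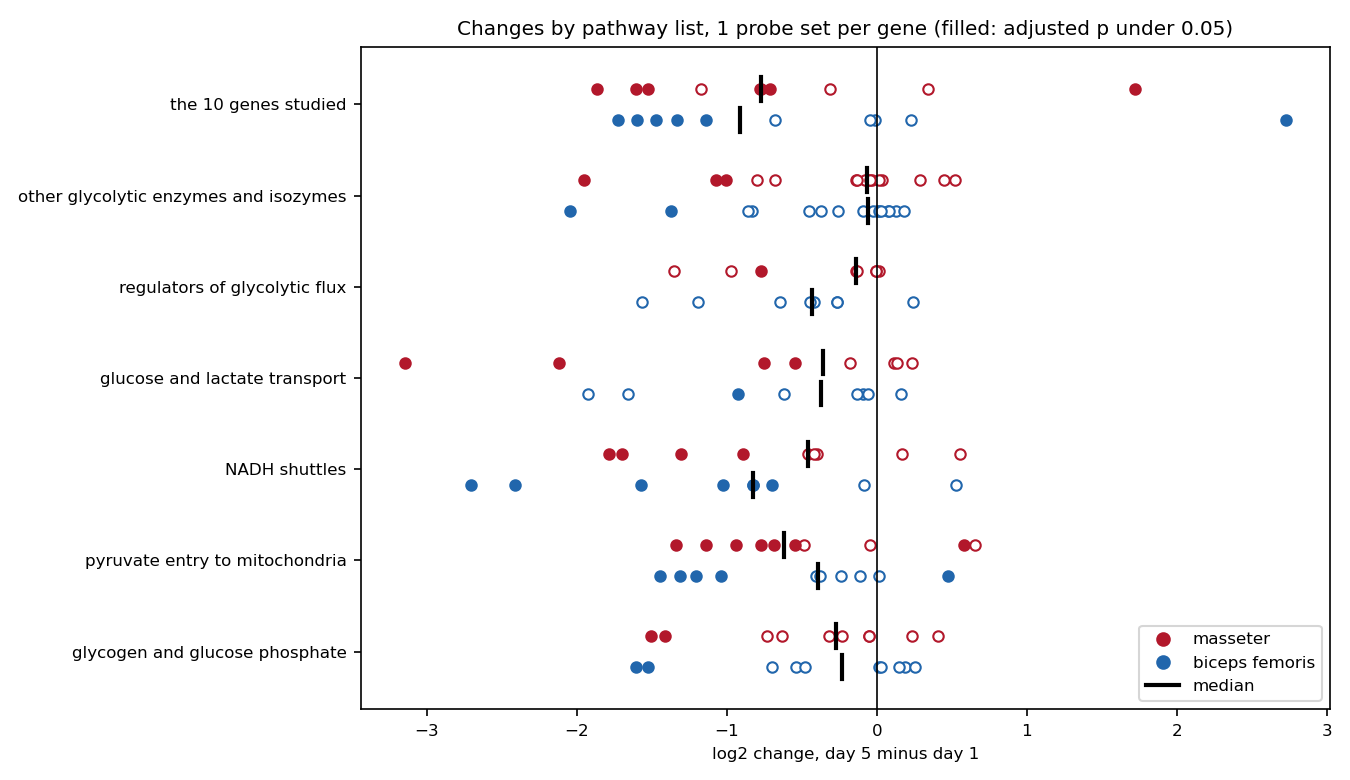
Log2 change, day 5 minus day 1 (x axis), of 1 probe set per gene for the 10 genes studied and 6 neighbouring lists (y axis), masseter in red above biceps femoris in blue. Filled points had an adjusted p under 0.05 and black bars are list medians; the shuttle list has a median of -0.46 in masseter and -0.83 in biceps femoris, and the list of other glycolytic enzymes has -0.07 and -0.06.

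Over the 18 arrays, after each muscle's mean was subtracted, the named genes whose pattern was among the most like that of TPI1 were C16orf33 (r = 0.958), FAM213B (0.956), GPI (0.951) and ANK1 (0.948), among 12471 genes. For GPD2 they were RPL17 (r = 0.946), ARFGAP3 (0.944) and RPS3A (0.943), behind a pair of probe sets that carry no gene symbol. These are descriptions over arrays that share the difference between days.

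Markers of fibre type and of other cells moved on the same arrays, and their part in the changes above was not tested. Each marker gene was counted by its probe set of highest mean. The 5 slow-fibre genes fell in biceps femoris (median -3.47), where their mean per array was 8.76 to 12.5 at day 5 and 13.3 to 13.9 at day 1, and 3 of 5 fell in masseter (12.9 to 13.6 at day 5, 13.6 to 14.3 at day 1). Of 4 fast-fibre genes, 2 fell in masseter (12.9 to 13.6 at day 5, 13.9 to 14.2 at day 1) and none passed in biceps femoris (13.2 to 13.6 at day 5, 13.5 to 13.7 at day 1; 1 with an unadjusted limma p under 0.05). Of 5 fibroblast genes, 4 fell in biceps femoris (9.42 to 10.6 at day 5, 11.1 to 11.7 at day 1) and none passed in masseter (9.48 to 11.4 at day 5, 10.6 to 11.5 at day 1; 3 with an unadjusted p under 0.05). Dimmer probe sets differed for a fast-fibre and a fibroblast gene. That of TNNT3 rose in biceps femoris (1.06, adjusted p = 0.00121 in limma). A dimmer probe set of COL3A1 fell in masseter (-1.56, adjusted p = 0.0483), and another did not pass there (0.24). Of 4 endothelial genes, 2 fell in biceps femoris (8.48 to 9.04 at day 5, 8.80 to 9.46 at day 1) and 1 rose in masseter (9.19 to 9.78 at day 5, 8.48 to 10.1 at day 1). Of 6 macrophage and leukocyte genes, 1 rose in masseter (6.80 to 7.67 at day 5, 6.78 to 7.34 at day 1) and none passed in biceps femoris (6.59 to 6.83 at day 5, 6.51 to 7.31 at day 1; none at an unadjusted p under 0.05). The erythrocyte genes averaged 9.71 to 10.7 per array at day 5 and 9.85 to 11.3 at day 1 in masseter, and 8.90 to 9.88 at day 5 and 9.32 to 10.6 at day 1 in biceps femoris. The adipocyte genes averaged 6.98 to 7.72 at day 5 and 6.57 to 9.92 at day 1 in masseter, and 8.22 to 9.10 at day 5 and 8.39 to 9.69 at day 1 in biceps femoris. None of the 4 erythrocyte or 3 adipocyte genes passed in limma in either muscle. At an unadjusted p under 0.05 there were 1 of each in masseter, and 2 erythrocyte genes and no adipocyte gene in biceps femoris. Of all probe sets, 28.9% in masseter and 29.7% in biceps femoris had such a p, the background for each unadjusted count of these markers. For the called counts the background was 7.31% higher and 6.51% lower in masseter, and 9.89% higher and 7.27% lower in biceps femoris.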

How the data were processed

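Total RNA had been extracted with Trizol and RNeasy columns and hybridised as biotinylated cRNA, 1 array per muscle sample, per the labels' protocols. The deposited values are log2 intensities that the authors had made with RMA, per the submitters' processing notes (version not given in the sources used here), and were used as they stand. For biceps femoris the authors also deposited a table with the same log2 values, which gives per the file headers their log2 fold change and adjusted p-value for each probe set, plus B-statistics (a log odds score). Its annotation named the genes. Between sorted arrays the largest gap was 0.230 within masseter, 0.237 within biceps femoris and 0.541 or more across muscles, so the muscles had been normalized apart.

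The 124 Affymetrix controls of 24123 probe sets were left out. The arrays of each muscle were fitted alone, without covariates, and the difference of the changes on all 18, with limma 3.58.1 (lmFit, eBayes, two-sided) in R 4.3.3. P-values were adjusted by Benjamini-Hochberg over 23999 probe sets, with a call at 0.05. The fit was tested on simulated data. A gene was represented by its probe set of highest mean over 18 arrays. Isozyme differences were tested by exact permutation of arrays.

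Named genes were the 10 members, up to 4 called genes of smallest p per list and comparison, GPD1, GAPDH, PGAM2, GPI and SLC2A4, and the 5 genes most correlated with GPD2 and with TPI1. Some genes that this rule names are not reported here. Members and lists were chosen with earlier results of these data known. Titles and series text, which call the biceps femoris day 1 arrays controls, were followed over their source and treatment labels, which call them treated. A breed tag names wild boar, the protocols domestic piglets. Masseter pairing comes from the animal codes in the descriptions; same-numbered arrays deviated together little (correlations -0.03 to 0.12). Biceps femoris arrays are separate samples by their labels, with no animal named.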

Additional observations from a re-analysis of the deposited data

Results flagged for a closer look

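In 7 of the 48 groups tested (12 probe sets, each muscle and day) 1 array lay farther from its nearest neighbour, as a share of the group's range, than Dixon's 95% critical value allows; chance gives about 1 in 20 groups. Day 1 replicate 4 of biceps femoris, which shares its spike-in level with the day 5 arrays, accounted for 4 of them: it was the highest for PGK1 (13.74, next 13.52), ENO3 (14.21, next 14.02) and LDHA (13.94, next 13.77), and the lowest for LDHB (11.72, next 12.53). Day 5 replicate 1 of biceps femoris, the array with the largest difference between actin probes, was the lowest for GPD2 by its brightest probe set (8.66, next 9.20) and by its dimmest (4.97, next 5.17). Day 1 replicate 2 of masseter was the highest for PKM (13.02, next 12.19). The part of the spike-in sets and of RNA quality in these values was not tested.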

How the results depend on the processing

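The called changes of TPI1 in masseter, LDHA in masseter, PGK1 and GPD2 (the brighter pair of probe sets) in both muscles, the dimmest GPD2 probe set in biceps femoris, and PKM in biceps femoris kept direction and call under every alternative run for them: replicate block, further quantile normalization, array weights, trended robust moderation, no dim probe sets, median probe set, 1 fit of all arrays and each array left out, and in biceps femoris alone the spike-in block and the authors' table. Leaving out 1 array gave 4 to 8 members called in masseter, 5 to 7 in biceps femoris and 0 to 1 for the difference. For these counts and those of the other alternatives, the share of all probe sets that passed is not given here. The biceps femoris count was 3 with the spike-in block, where list genes called numbered 10 rather than 16. With array weights, 2 members and 2 list genes passed for the difference. The replicate block, from the animals in masseter, left 4 members called there, without ENO3 and LDHB, and changed no other member's call; biceps femoris numbers do not pair arrays, and its count stayed 6. As an exact sign-flip test the block gave p = 0.125 for LDHB minus LDHA (1.15) and p = 0.0625 for GPD2 minus GPD1 (2.18) in masseter, and p = 0.125 (2.81) in biceps femoris, the smallest that 5 and 4 pairs allow being 0.0625 and 0.125. Without 1 array, LDHB minus LDHA in masseter ran from 0.89 to 1.51 (p 0.0159 to 0.0794) and GPD2 minus GPD1 in biceps femoris from 2.35 to 3.24 (p 0.0286 to 0.0571, with fewer arrays to permute). Uncalled changes that crossed 0 were ALDOA in biceps femoris (0.0442 with array weights; -0.0674 to 0.0455 without 1 array), ENO3 in biceps femoris (0.0185 with array weights, 0.0101 after quantile normalization; -0.0714 to 0.0182), HK2 in biceps femoris (-0.46 with array weights; -0.45 to 0.75), and for the difference HK2 (-0.75 with the spike-in block; -0.41 to 0.79), PFKM (0.28 with it; -0.45 to 0.23), TPI1 (0.18 with it) and PGK1 (-0.12 with array weights; -0.0404 to 0.339). PFKM in biceps femoris missed in 1 fit of all arrays (-1.14, adjusted p = 0.0867), and LDHB in masseter there (adjusted p = 0.0645), after quantile normalization (0.0580) and without any 1 of 7 arrays (0.0518 to 0.105); ENO3 in masseter missed after quantile normalization (0.0515). PFKM in masseter passed with array weights (0.0207), and the dimmest probe set of GPD2 in masseter without day 1 replicate 2 (0.00837). The causes were not tested. Counts of members with a larger SD without single arrays were added after seeing the data. Arrays of 4 or 5 per group limit what can pass.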
